A study of Arabidopsis thaliana with 8 samples.

Results

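HELITRON and HELITRONY insertions made up 3663 of the 27104 transposable element (TE) insertions counted in the sRNA tables, and fell into 13 of 319 TE families. They were taken as every insertion whose annotated family name starts with HELITRON. The 5 families HELITRON1 to HELITRON5 held 551 insertions and the 8 HELITRONY families held 3112. sRNAs were sequenced from Arabidopsis thaliana endosperm, the nourishing tissue of the seed, 7 days after pollination of Ler mothers by Col-0 fathers, and reads of 21, 22, 23 and 24 nt were counted separately over each insertion. All 8 libraries carry a mutant copy of NRPD1, the gene for the largest subunit of RNA polymerase IV (Pol IV), from at least 1 parent. The allele carries a T-DNA, arose in Col-0 and was crossed repeatedly into Ler. In mat nrpd1+/- (3 libraries) the Ler mother was mutant and the Col-0 father wild type, in pat nrpd1+/- (2 libraries, replicates 2 and 3) the Ler mother was wild type and the Col-0 father mutant, and in nrpd1-/- (3 libraries) both were mutant. Endosperm inherits 2 maternal genomes for each paternal genome. The crosses set loss of the mother's Pol IV against loss of the father's. Every mother was Ler and every father Col-0, so parent of origin and accession cannot be told apart. Pat nrpd1+/- endosperm also holds more functional NRPD1 copies than mat nrpd1+/-, while the paper reports less NRPD1 mRNA in it. Parent and NRPD1 dose are thus not separated either. Each library pooled endosperm of many seeds, and replicates came from crosses between different plants, so p-values measure the spread between such pools. In such bulk tissue, fewer cells making an sRNA and less of it per cell cannot be told apart. Wild-type (WT) libraries were not analysed here as samples, and WT values are the authors' pooled means, with no error.

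Helitrons are DNA transposons that move by rolling-circle replication. They carry no terminal inverted repeats, start with TC, end with CT and a pair of purines beside a short hairpin, and insert between an A and a T. Autonomous copies encode a large RepHel protein, with a replication initiator and a helicase. In Arabidopsis most copies are short, non-autonomous relatives, and the ATREP families, named separately, are non-autonomous helitrons too. Pol IV transcribes silenced TEs, RDR2 copies the transcript into double-stranded RNA, and DCL3 cuts it into 24-nt sRNAs that direct DNA methylation to the locus.

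Few insertions held the letters of both ends of a helitron. The start TC was found in 5.43% of HELITRON insertions and in 4.89% of all TE insertions, and an end reading CTAA or CTAG, or else with G in the third place as CTGA or as CTGG, was found on the annotated strand in 1.80% against 1.64%. Such a match of letters is a description and not proof of a working end. Both ends, with an A just before and a T just after the insertion, were found in 4 HELITRON insertions, 26 ATREP insertions and 30 of all 27104 TE insertions. The outer 40 bases of these 4 copies, shown because all of these letters were found in them, are printed 5′ to 3′ on the annotated strand, with the TC and the CTAG in capitals. The bases are from the RefSeq TAIR10.1 assembly, whose coordinates match the TAIR10 coordinates of the tables.
HELITRON1 AT1TE43740 start, chr1:13371475-13371514, plus strand: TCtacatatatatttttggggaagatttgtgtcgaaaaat
HELITRON1 AT1TE43740 end, chr1:13386441-13386480, plus strand: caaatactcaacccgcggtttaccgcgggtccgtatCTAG
HELITRONY1A AT2TE22585 start, chr2:5591472-5591511, plus strand: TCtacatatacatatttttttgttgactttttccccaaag
HELITRONY1A AT2TE22585 end, chr2:5592824-5592863, plus strand: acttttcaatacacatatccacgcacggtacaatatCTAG
HELITRONY1D AT5TE48360 start, chr5:13608110-13608149, minus strand: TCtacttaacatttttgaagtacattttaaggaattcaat
HELITRONY1D AT5TE48360 end, chr5:13606079-13606118, minus strand: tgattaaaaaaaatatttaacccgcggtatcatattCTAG
HELITRONY2 AT4TE18205 start, chr4:4232500-4232539, minus strand: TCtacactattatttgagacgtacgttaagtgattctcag
HELITRONY2 AT4TE18205 end, chr4:4221544-4221583, minus strand: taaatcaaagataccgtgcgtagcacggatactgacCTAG

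A second set of sequences belongs to AT3TE54345, a HELITRONY2 insertion of 796 bp (chr3:13291264-13292059, plus strand), the only HELITRON insertion called higher in nrpd1-/- than in both heterozygotes. Its bases 410 to 783 form an inverted repeat of 374 bp, with arms of 187 bases that lie back to back. The 5′ arm is printed as it lies on the plus strand and the 3′ arm as its reverse complement, so that both lines read alike where the transcript could pair with itself. Capitals mark the 151 of 187 positions (80.7%) at which the arms pair.
AT3TE54345 5′ arm, chr3:13291673-13291859: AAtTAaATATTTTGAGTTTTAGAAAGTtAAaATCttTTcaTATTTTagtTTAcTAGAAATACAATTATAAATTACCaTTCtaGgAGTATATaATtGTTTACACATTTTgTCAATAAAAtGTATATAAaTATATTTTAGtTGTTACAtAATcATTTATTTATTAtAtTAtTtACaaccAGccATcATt
AT3TE54345 3′ arm, chr3:13291860-13292046, reverse complement: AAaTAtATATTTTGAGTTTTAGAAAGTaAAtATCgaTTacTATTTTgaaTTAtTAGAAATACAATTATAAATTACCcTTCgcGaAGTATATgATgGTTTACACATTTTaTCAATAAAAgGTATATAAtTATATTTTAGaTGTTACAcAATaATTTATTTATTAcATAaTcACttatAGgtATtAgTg

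The insertions ranged from 20 to 18766 bp, with a median of 323 bp, and covered 2197 kb. 906 of them were under 100 bp and 146 were at least 2000 bp. The longest copies belonged to HELITRONY2 (18766 bp), HELITRON4 (17217 bp), HELITRON3 (15347 bp) and HELITRON1 (15006 bp), while no HELITRONY1D copy passed 2645 bp. HELITRONY3 was the most numerous family, with 1196 insertions, and HELITRON5 the least, with 44. The insertions lay on all 5 chromosomes, from 552 on chromosome 4 to 834 on chromosome 1. HELITRON1 to 5 overlapped an annotated gene in 40.1% of cases and HELITRONY in 12.9%, against 27.3% of all TE insertions. Pseudogenes count as annotated genes here, and an insertion inside a gene was not told apart from a gene inside an insertion. At least 1 24-nt read in any of the 8 libraries was counted over 3482 of the 3663 insertions, so 181 had none.

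The TE reads behind these values were deep in the heterozygotes and shallow in nrpd1-/-. Mat nrpd1+/- libraries held 3938138 to 5140627 24-nt reads over TEs, the pat nrpd1+/- libraries 7192000 (replicate 2) and 3604164 (replicate 3), and nrpd1-/- libraries 188781 to 266482. Levels are given as reads per 1000000 genic reads of the same size (CPM), and a density is CPM per kb of insertion. Genic 24-nt reads were themselves fewer in nrpd1-/- (261425 to 452959) than in mat nrpd1+/- (863680 to 1082355). The paper reports that sRNAs of most genes, but not most miRNAs, were lost without Pol IV. CPM values of nrpd1-/- are therefore raised relative to a scale that does not depend on Pol IV. The pat replicates stood apart from each other, since 24-nt densities over all TEs were 140 and 180 in replicates 2 and 3. An insertion or family was called when edgeR's quasi-likelihood test gave a p of at most 0.05 after Benjamini-Hochberg adjustment over everything tested, with at least a 2-fold change. Among the nrpd1-/- libraries replicate 1 stood apart at the insertions that were low in mat nrpd1+/-, and results that rest on it are given without it. Each read was placed at 1 best alignment, so the values of near-identical copies are less certain than those of a family sum.

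In mat nrpd1+/- endosperm all HELITRON insertions together had a 24-nt density of 171 ± 7.48 CPM per kb (SD, n = 3). HELITRONY2 was the densest family, at 341 ± 17.7, followed by HELITRON2 (227 ± 19.6), HELITRON5 (223 ± 9.80), HELITRON1 (212 ± 8.09) and HELITRONY3 (202 ± 10.4). HELITRONY1E was the least dense, at 62.8 ± 2.41, and HELITRONY1B followed at 84.3 ± 1.14. The ranges of HELITRON1, HELITRON2, HELITRON5 and HELITRONY3 overlapped one another, whereas no mat library of HELITRONY2 came down to the densest library of those 4 families. HELITRON insertions took 9.28 to 9.64% of the 24-nt TE reads in the mat libraries, 9.48 to 9.89% in the pat libraries and 6.37 to 6.68% in nrpd1-/-. A single 3512 bp HELITRONY3 copy, AT4TE09825 (chr4:2072130-2075641, minus strand), held 27350, 23915 and 20648 24-nt reads in mat replicates 1 to 3 and 38563 and 14831 in pat replicates 2 and 3. In nrpd1-/- it held 118, 169 and 70, which is 62.3-fold lower than in mat nrpd1+/- (log2 fold change -5.96, SE 0.20).

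**Figure D1:**
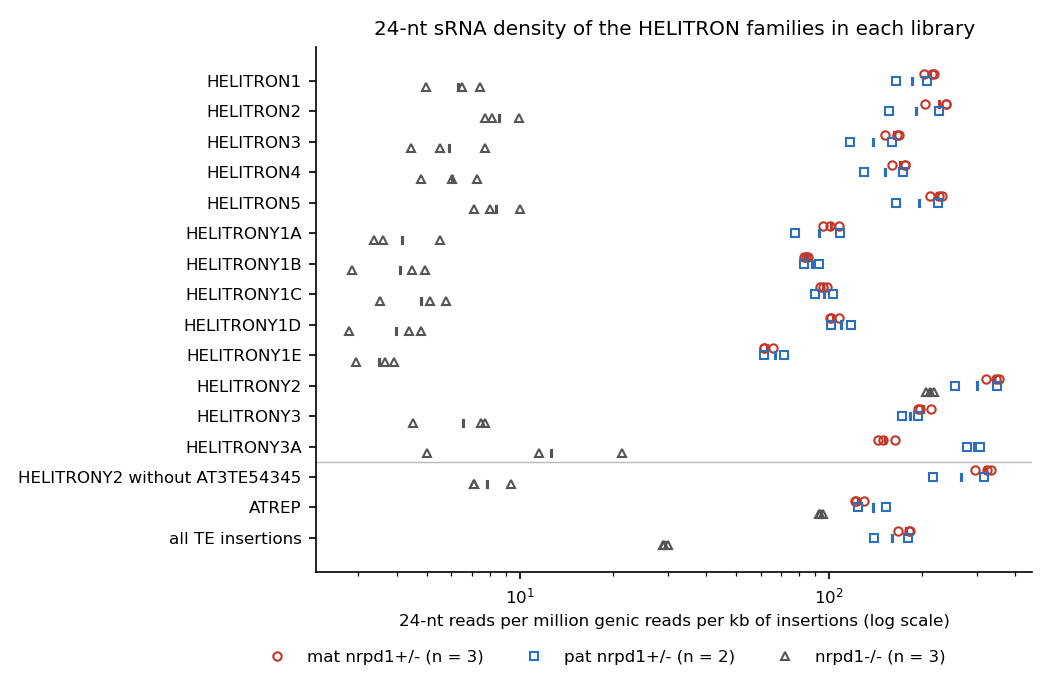
24-nt sRNA density (CPM per kb of insertions, log axis) of the 13 families, of HELITRONY2 without AT3TE54345, of the ATREP families and of all TE insertions. Each symbol is a library and each short bar a group mean. HELITRONY3A is the family whose mat and pat libraries lie furthest apart, and HELITRONY2 keeps a density of 212 in nrpd1-/- that falls to 7.84 once AT3TE54345 is left out.

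Density did not follow copy length in 1 direction. Insertions of at least 2000 bp were 146 of 3663 yet held 45.3% of the HELITRON 24-nt reads in mat nrpd1+/-, at 242 ± 12.7 CPM per kb. Insertions of at least 100 but under 500 bp had 122 ± 5.10, and those of at least 500 but under 2000 bp 135 ± 6.91. Insertions under 100 bp had 319 ± 11.3, each over few bases, and all TE insertions of that length had 330 ± 4.82. A read that reaches past the ends of so short an insertion may count in full against its few bases. These densities are therefore not on a par with those of longer copies. No 24-nt read was counted in 15.5% of the fragments under 100 bp and in none of the copies of at least 2000 bp. Across the 1338 insertions tested in nrpd1-/- against mat nrpd1+/-, Spearman's rho between length and the log2 fold change was 0.08. Between length and density in mat nrpd1+/- it was -0.40, where short insertions enter only with enough reads to be tested. Both are descriptions over insertions that share the same libraries.

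To set loss of the mother's Pol IV against loss of the father's, mat nrpd1+/- was compared with pat nrpd1+/-. 1824 insertions had enough 24-nt reads to be tested, of which 79 were lower (4.33%) and 114 higher (6.25%) in mat nrpd1+/-. Over all 16769 TE insertions tested, 2.25% were lower and 4.93% higher, and over 4217 ATREP insertions 3.68% and 5.26%. The drops were far larger than the gains, with a median log2 fold change of -3.54 over the 79 and 1.70 over the 114. HELITRONY insertions were called in 72 and 101 of 1477 cases, and HELITRON1 to 5 in 7 and 13 of 347. HELITRONY3, the largest family, held 27 lower and 44 higher of 629 tested (4.29% and 7.00%), near the shares over all HELITRON insertions. The counts were 15 and 20 of 258 in HELITRONY1D, 9 and 14 of 171 in HELITRONY1E, and 7 and 8 of 153 in HELITRONY1B. They were 3 and 9 of 111 in HELITRONY1A, 4 and 3 of 53 in HELITRONY1C, and 4 and 2 of 77 in HELITRONY2. HELITRONY3A had 3 and 1 of 25, HELITRON1 2 and 3 of 90, and HELITRON2 1 and 7 of 95. HELITRON3 had 1 and 2 of 37, HELITRON4 3 and 0 of 90, and HELITRON5 0 and 1 of 35. The 79 lay at 66 places more than 1 kb apart and the 114 at 107. The median over all TE insertions tested was itself 0.28 (0.29 over HELITRON insertions), so changes read against that shift. It became 0.89 without TMM factors and 0.00 with scaling on the TE reads. The lower calls were 72 and 97 under these scalings, while the higher calls became 698 without TMM factors and 73 with TE scaling, so the share of lower among the called moved from 40.9% to 9.35% and 57.1%. The higher calls also rested on single libraries, being 309 without pat replicate 3, 67 without mat replicate 1 and 75 without pat replicate 2.

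**Figure D2:**
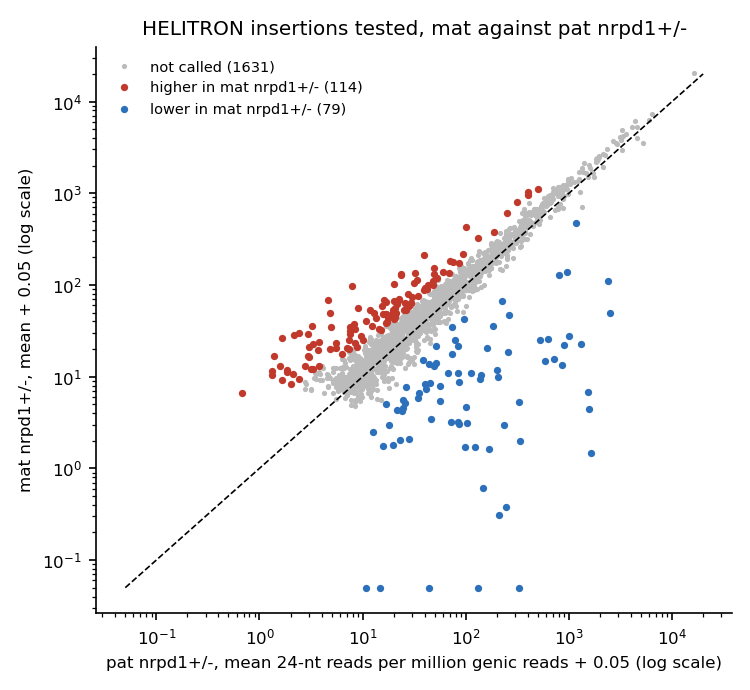
Mean 24-nt level of each of the 1824 tested HELITRON insertions in pat nrpd1+/- (x axis, n = 2) and mat nrpd1+/- (y axis, n = 3), in CPM plus 0.05, both on log axes, with the line of equality dashed. Insertions lower in mat nrpd1+/- (79) spread down to 0 reads in mat nrpd1+/-, whereas those higher in mat nrpd1+/- (114) stay closer to the line.

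The insertions with the largest drops had next to no 24-nt sRNAs when the mother was mutant. 5 of them are under 100 bp, and their whole sequences are printed on their annotated strands (TAIR10.1) because they show how little sequence such a fragment holds. No motif was searched in them, so no base is in capitals.
HELITRON4 AT3TE35690, chr3:8510082-8510115, minus strand: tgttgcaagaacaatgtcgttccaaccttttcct
HELITRONY1D AT5TE57700, chr5:15983814-15983839, plus strand: tatgcaaataaaatatttatgccctc
HELITRONY1E AT1TE37620, chr1:11619091-11619156, plus strand: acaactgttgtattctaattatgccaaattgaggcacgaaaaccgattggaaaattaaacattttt
HELITRONY1B AT3TE22715, chr3:5406479-5406576, plus strand: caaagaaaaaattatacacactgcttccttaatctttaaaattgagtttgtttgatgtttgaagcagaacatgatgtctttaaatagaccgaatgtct
HELITRONY1E AT2TE55975, chr2:12800154-12800218, minus strand: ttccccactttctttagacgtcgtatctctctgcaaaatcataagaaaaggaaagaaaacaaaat

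AT3TE22715, 18 bp from AT3G15960, had 0, 0 and 0 24-nt reads in mat replicates 1 to 3 against 987 and 215 in pat replicates 2 and 3. It was at least 379-fold lower in mat nrpd1+/-, counted against a floor of 3 reads over the mat libraries (adjusted p = 3.4e-09). The authors' WT mean was 347, in a table where the mat mean was 0. AT1TE37620, 1672 bp from RCD1, had 0, 0 and 0 reads against 264 and 137 (at least 153-fold lower), and AT2TE55975 had 0, 0 and 0 against 135 and 29 (at least 51.6-fold lower). No mat library of these 3 insertions held a read. AT3TE35690, which lies in the transcribed pseudogene AT3G23645, had 2, 2 and 1 reads in mat nrpd1+/- and 4069 and 1389 in pat nrpd1+/- (log2 fold change -10.06, SE 0.33, adjusted p = 1.5e-12). AT5TE57700 had 1, 0 and 0 against 722 and 108 (log2 -9.15, SE 0.65). The ATREP1 insertion AT5TE57705, which starts at the next base, had 16, 15 and 13 reads against 4246 and 1179, and the HELITRONY1D insertion AT3TE35695, next to AT3TE35690, had 21, 24 and 10 against 1423 and 752. Both neighbours, chosen after their values were seen, were lower in mat nrpd1+/- like the fragment beside them.

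Longer copies were also among the largest drops. AT1TE32105, a HELITRON4 copy of 179 bp located 180 bp from ERF11, which encodes an ethylene response factor, had 0, 0 and 1 reads in mat nrpd1+/- and 683 and 186 in pat nrpd1+/- (log2 -9.35, SE 0.53, adjusted p = 8.2e-10). AT1TE14990, a HELITRON4 copy of 391 bp inside AT1G13470, had 0, 2 and 0 against 412 and 111 (log2 -7.81, SE 0.53). AT1TE82220, a HELITRONY3 copy of 1518 bp, had 4, 6 and 5 against 5191 and 884 (log2 -8.49, SE 0.39). It lies within 5 Mb of NRPD1 on chromosome 1, where parental sequence linked to the mutant allele cannot be told apart from the mutation. 72 of the lower and 98 of the higher calls lay outside that window. It held 101 of the 1824 tested insertions, 7 of the 79 lower and 16 of the 114 higher calls. Over all TE insertions it held 645 of 16769 tested, 33 of 377 lower and 115 of 827 higher. Higher calls were thus over-represented there, and the same limit applies to them. Where the mat level rested on 1 or 2 reads in a single library, the fold moved widely without that library, to -11.23 for AT5TE57700 (without mat replicate 1), -11.49 for AT1TE32105 (without mat replicate 3) and -10.70 for AT1TE14990 (without mat replicate 2) on the log2 scale. These fitted values against 0 reads depend on the prior count and are no bound. In each of these 8 insertions every mat library was below every pat library, which the rule that named them requires. Their WT mean ranged from 50.8 (AT2TE55975) to 1418 (AT1TE82220). Over all 79, the authors' normalised means summed to 24239 in WT, against 2103 to 2266 in the mat libraries of the same table. In the pat table WT summed to 26198, and the pat libraries to 49747 and 30623. The 79 were chosen by the difference between these mat and pat libraries, so the sums do not test either cross against WT.

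The insertions with the largest gains in mat nrpd1+/- had reads in every library of both crosses, with a single exception. AT2TE04915, a HELITRONY3 copy of 244 bp (chr2:1092947-1093190, plus strand) 74 bp from AT2G03580, had 93, 100 and 50 24-nt reads in mat nrpd1+/- and 11 and 4 in pat nrpd1+/- (log2 3.89, SE 0.40, adjusted p = 2.2e-06). AT1TE40920 (HELITRONY1E) had 24, 39 and 28 against 5 and 1 (log2 3.80, SE 0.52), and AT4TE25085 (HELITRONY3) had 44, 40 and 21 against 6 and 2 (log2 3.57, SE 0.48). In the authors' mat table, the WT means of these 3 were 82.1, 22.97 and 41.7, beside mat means of 87.9, 33.8 and 37.9. AT1TE35535 (HELITRONY3) had 113, 132 and 96 reads against 24 and 5, and AT5TE69000 (HELITRON2) had 38, 28 and 35 against 6 and 3. AT2TE49850 (HELITRONY1E), 742 bp from the MYB transcription factor gene MYB104, had 68, 77 and 31 against 12 and 4. AT3TE30860 (HELITRONY3), 108 bp from the cytochrome P450 gene CYP705A32, had 58, 39 and 30 against 10 and 2. AT4TE17860 (HELITRONY1E, 43 bp) had 32, 37 and 30 against 10 and 0, the exception. These 8 log2 fold changes ran from 3.25 to 3.89. Each mat library was above each pat library once scaled, which the rule that named them requires. Over all 114, the authors' normalised means summed to 9755 in WT and 14646 to 15801 in mat nrpd1+/-, and in the pat table to 10541 in WT and 6247 and 7078 in pat nrpd1+/-. These 114 were likewise chosen by the difference between mat and pat libraries, so their sums do not test either cross against WT.

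Summed over whole families, no difference between mat and pat nrpd1+/- was large enough to be called. Of the 13 families, 0 were called lower and 0 higher, where 0.631% and 1.26% of all 317 TE families were. DESeq2 also called 0, and at an unadjusted p under 0.05 in edgeR 1 family was lower and 0 higher. That family was HELITRONY3A, with densities of 149, 163 and 144 CPM per kb in mat replicates 1 to 3 and 309 and 278 in pat replicates 2 and 3. Every mat library lay below both pat libraries, and the log2 fold change was -0.90 (SE 0.24, adjusted p = 0.0048), short of 2-fold. It was -1.20 with scaling on TE reads, which made it a call, and -0.28 without TMM factors (adjusted p = 0.36), and leaving out any of the 3 mat replicates raised the adjusted p to between 0.11 and 0.20. The 176 bp insertion AT2TE33370 (chr2:8038912-8039087, plus strand), 583 bp from AT2G18530, stood out in this family, with 12, 7 and 5 reads in mat nrpd1+/- and 4332 and 1103 in pat nrpd1+/- (log2 -7.78, SE 0.31). Without it, the other 45 insertions of HELITRONY3A had 153 ± 10.1 CPM per kb in mat nrpd1+/- (n = 3) and 187 ± 10.9 in pat nrpd1+/- (n = 2). The other 12 families had log2 fold changes from -0.04 (HELITRONY1D) to 0.29 (HELITRON2), and for 10 of them the sign turned under another scaling or with a library left out, so no direction is given for them.

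In nrpd1-/-, where neither parent supplies Pol IV, nearly all tested HELITRON insertions had fewer 24-nt sRNAs. Of 1338 insertions tested against mat nrpd1+/-, 1323 were lower and 4 higher, where 98.4% and 0.622% of all TE insertions were. Against pat nrpd1+/-, 974 of 979 were lower and 1 higher, with 98.5% and 0.538% over all TE insertions. The median log2 fold change against mat nrpd1+/- was -4.89 (-4.97 over all TE insertions). With insertions that had no read in nrpd1-/- set to their bound it was -4.52, a 22.9-fold loss. Both comparisons use the same 3 nrpd1-/- libraries. Scaled on mature miRNA reads in place of genic reads, the median over all TE insertions against mat nrpd1+/- was -7.14, so the depth of the loss, though not its direction, depends on the scaling. The HELITRON3 copy AT1TE65220 (161 bp, inside the pseudogene AT1G52960) had 156, 187 and 115 reads in the mat libraries, 44 and 26 in the pat libraries and 0, 0 and 0 in nrpd1-/-, at least 46.5-fold below mat nrpd1+/-. AT2TE10250, a 43 bp piece of HELITRONY1A, had 212, 213 and 192, then 121 and 91, and 0, 0 and 0, at least 63.2-fold below. AT5TE71735 and AT1TE54135, both HELITRONY1B, also had no read in nrpd1-/- against 107 to 172 in the mat and 109 to 226 in the pat libraries, and were at least 42.4- and 42.0-fold below mat nrpd1+/-. Against pat nrpd1+/-, AT5TE39380 (HELITRON1) was at least 48.2-fold lower and AT2TE17040 (HELITRONY1B) at least 33.4-fold lower, from 232 and 157 and from 141 and 116 reads to 0 in every nrpd1-/- library.

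The loss held in every family apart from HELITRONY2. 12 of the 13 families were called lower than in mat nrpd1+/- (96.5% of all families were), from -3.55 on the log2 scale in HELITRONY3A (SE 0.17) to -5.08 in HELITRON1 (SE 0.18). Without nrpd1-/- replicate 1 HELITRONY3A was -4.22, close to the -4.16 of HELITRONY1E, so its place at the end of that range rested on 1 library. Against pat nrpd1+/-, 12 of 13 were called lower as well (96.5% of all), from -4.19 in HELITRONY1E to -4.83 in HELITRON1. In both comparisons 0 families were higher in edgeR, also at an unadjusted p under 0.05, and 0 in DESeq2, against 1.26% and 1.27% of all families. The densities left in nrpd1-/- were between 3.51 ± 0.50 (HELITRONY1E) and 12.6 ± 8.25 CPM per kb (HELITRONY3A, n = 3), the latter with 21.4 in replicate 1 and 11.5 and 5.01 in replicates 2 and 3. HELITRONY2 kept 206, 212 and 218 in nrpd1-/- replicates 1 to 3, against 345, 356 and 321 in mat replicates 1 to 3, which is -0.69 on the log2 scale, under 2-fold (SE 0.14, adjusted p = 8.0e-07). With AT3TE54345 left out, an alternative chosen after seeing the data, it was -5.35, and all 13 families were then called lower.

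AT3TE54345 was the only HELITRON insertion called higher in nrpd1-/- than in both heterozygotes. It overlaps the transcribed pseudogene AT3G32371. It held 4164, 4239 and 3959 24-nt reads in mat replicates 1 to 3, 13093 and 4503 in pat replicates 2 and 3, and 11391, 11820 and 9125 in nrpd1-/- replicates 1 to 3. Its CPM was 3275 to 3758 in the mat libraries, 5703 and 5029.5 in the pat libraries, and 29404 to 31268 in nrpd1-/-. On this genic scale the nrpd1-/- libraries thus lay well above the others. The log2 fold change was 3.10 against mat nrpd1+/- (SE 0.17, adjusted p = 3.4e-72) and 2.56 against pat nrpd1+/- (SE 0.39, adjusted p = 7.0e-11). Scaled on mature miRNA reads, these became 0.81 and 0.28, and neither was then a call, so whether the insertion gained 24-nt sRNAs or only kept them depends on the scaling. In nrpd1-/- it held 66.4 to 75.8% of all HELITRON 24-nt reads and 95.6 to 96.8% of those of HELITRONY2, against 0.872 to 1.04% of HELITRON reads in mat nrpd1+/-. Its 23-nt reads were 396, 382 and 378 in mat nrpd1+/- and 545, 620 and 588 in nrpd1-/- (log2 1.29, SE 0.26), with 0.71 in DESeq2, where it was not a call.

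The stretch is not unique. By blastn the ATREP10D insertion AT3TE54270 overlaps a copy 97.0% identical. The insertion had 8478, 8493 and 9152 24-nt reads in mat nrpd1+/-, 23479 and 11258 in pat replicates 2 and 3, and 21755, 23734 and 18086 in nrpd1-/-. The BRODYAGA1 insertion AT3TE52895 overlaps a copy 96.0% identical. It had 774, 818 and 659 reads in mat nrpd1+/-, 2100 and 1091 in pat replicates 2 and 3, and 1979, 2259 and 1744 in nrpd1-/-. Both copies start outside these insertions, so the reads were not counted over whole copies. A more distant copy, 90.6% identical, spans ATREP insertions around AT2TE45635. AT3TE54270 and AT3TE52895 thus had more raw reads in nrpd1-/- than in mat nrpd1+/-, while the deeper pat replicate 2 lay within the nrpd1-/- range. TE and genic 24-nt reads were fewer in nrpd1-/-. Mature miRNA reads of 24 nt were not, at 31761, 28085 and 19645 against 17579, 17785 and 16855 in mat nrpd1+/-. How the reads were shared out among the copies was not tested. The next annotated insertions were also called higher, namely AT3TE54350 (BRODYAGA2, log2 2.52) and AT3TE54355 (ATREP10C, log2 3.21), both chosen after their values were seen.

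Most insertions with an inverted repeat lost their 24-nt sRNAs, as did those without. An inverted repeat of at least 100 bp at 75% identity or more was found in 61 of the 2201 HELITRON insertions of at least 200 bp, and 40 of those 61 were HELITRONY3 copies. Of the 47 that were tested, 46 were lower in nrpd1-/- than in mat nrpd1+/- and only AT3TE54345 was higher. Of the 1032 tested insertions in which none was found, 1020 were lower and 3 higher, and 98.4% of all TE insertions were lower. The median log2 fold change was -4.29 over the 47 and -4.87 over the 1032. The least reduced of the 46 with a repeat was AT4TE20730, a HELITRONY3 copy of 1184 bp, with 403, 557 and 381 reads in mat nrpd1+/- and 53, 54 and 20 in nrpd1-/- (log2 -1.71, SE 0.18). Its 21-nt reads numbered 48, 56 and 53 in mat nrpd1+/- and 48, 96 and 33 in nrpd1-/-, so at that size the groups overlapped in raw reads.

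**Figure D3:**
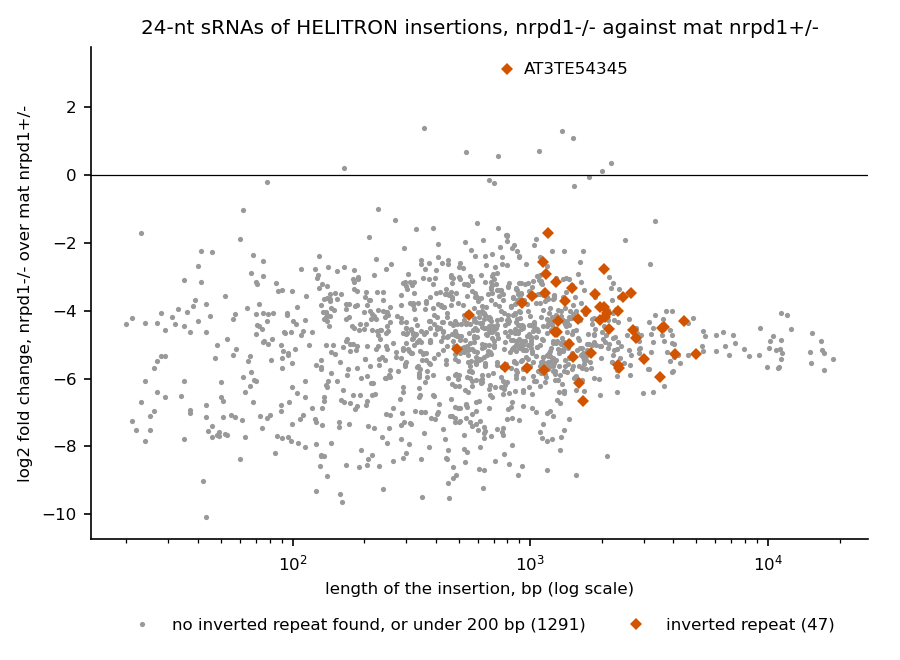
log2 fold change of 24-nt sRNAs in nrpd1-/- over mat nrpd1+/- (y axis) against the length of the insertion in bp (x axis, log scale) for the 1338 tested HELITRON insertions, with the 47 that hold an inverted repeat as diamonds. The median is -4.89, and AT3TE54345 is the highest point, at 3.10.

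The other 3 insertions called higher in nrpd1-/- than in mat nrpd1+/- were AT3TE63430, AT1TE37610 and AT1TE32110, named because the count is small. AT1TE37610, a HELITRONY3 copy 284 bp from RCD1, had 50, 67 and 54 reads in the mat libraries, 6749 and 2002 in the pat libraries, and 115, 18 and 0 in nrpd1-/-. AT3TE63430 had 25, 29 and 25 in mat nrpd1+/- and 36, 26 and 2 in nrpd1-/-, and AT1TE32110 had 12, 21 and 13 against 19, 11 and 0. In all 3 the libraries of the groups overlapped, and nrpd1-/- replicate 1 was the highest and replicate 3 the lowest. Without nrpd1-/- replicate 1, 1 insertion was called higher, without replicate 3, 9 were, and without mat replicate 2 or 3, 7 were.

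The same order of libraries was seen over the 79 insertions that were lower in mat than in pat nrpd1+/-, a set chosen without the nrpd1-/- libraries. Together they held 890, 358 and 48 24-nt reads in nrpd1-/- replicates 1 to 3, or 47.0, 18.6 and 3.36 CPM per kb, against 33.0 to 36.3 in mat nrpd1+/- and 617 and 445 in pat nrpd1+/-. Those reads were 16.7, 5.98 and 1.65% of the HELITRON 24-nt reads of the 3 nrpd1-/- libraries, AT3TE54345 left out. The same share was 0.442 to 0.456% in mat nrpd1+/- and 9.91 and 5.78% in pat replicates 2 and 3. The set was chosen for being low in mat nrpd1+/-, so its low mat values follow from that choice. The 114 insertions higher in mat nrpd1+/- had 3.64, 5.78 and 4.04 CPM per kb in the same 3 libraries, and the 1630 tested but not called had 7.04, 8.72 and 5.99. The spread between nrpd1-/- libraries was thus wider over the 79 insertions than over the others, and the cause was not tested. HELITRONY3A followed the same order, with 21.4, 11.5 and 5.01, and 9.65, 8.23 and 4.35 without AT2TE33370.

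The loss in nrpd1-/- extended to the other sizes that could be tested. For 22-nt sRNAs, 494 of 496 tested insertions were lower in nrpd1-/- than in mat nrpd1+/- (97.1% of all TE insertions, and 1.43% higher), and 399 of 401 were lower than in pat nrpd1+/- (95.8% and 1.68%). None was called higher in edgeR or DESeq2, and at an unadjusted p under 0.05 in edgeR 1 was higher against mat nrpd1+/- and 0 against pat nrpd1+/-. AT1TE26665, a HELITRONY3 copy 1145 bp from the tryptophan aminotransferase-related gene TAR1, fell from 159, 130 and 97 22-nt reads in mat nrpd1+/- to 0 in every nrpd1-/- library, at least 126-fold. AT5TE33815, a HELITRONY3 copy near AGL36, a MADS-box gene, fell from 122, 136 and 100 to 0 in each, at least 117-fold. For 23-nt sRNAs 1033 of 1034 were lower and 1 was higher (99.6% and 0.176% of all), and AT5TE70155 and AT4TE23785, both HELITRONY3, fell from 767, 738 and 555 and from 622, 638 and 513 reads to 0 in every nrpd1-/- library, at least 434- and 375-fold.

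Between mat and pat nrpd1+/-, 42 of 701 insertions were lower and 26 higher in 22-nt sRNAs (2.21% and 3.9% of all TE insertions), and 56 of 662 were lower and 21 higher in 21-nt sRNAs (3.15% and 3.23%). The higher counts again turned on a library, being 305 and 71 without pat replicate 3, and the 22-nt count was 9 without pat replicate 2, 12 without mat replicate 1 and 11 without mat replicate 2. AT3TE08810, a HELITRONY3 copy 102 bp from AT3G66654, had 0, 0 and 0 21-nt reads in mat nrpd1+/- against 220 and 68 in pat nrpd1+/-, at least 105-fold lower, and its 24-nt reads were 2, 5 and 3 against 714 and 155. The 24-nt losers AT3TE35690 and AT1TE32105 had 0 22-nt reads in every mat library and were at least 293- and 63.3-fold lower than in pat nrpd1+/-, and AT3TE22715 had 0 21-nt reads in every mat library, at least 178-fold lower. AT1TE59670 (HELITRONY1B) was higher in mat nrpd1+/- in both classes, with 28, 25 and 11 21-nt reads against 8 and 5 and 32, 30 and 19 22-nt reads against 7 and 3. AT3TE24555 (HELITRONY1D) had 28, 36 and 9 22-nt reads against 5 and 2 (log2 2.99, SE 0.64), and AT1TE63745 (HELITRONY3) had 19, 29 and 12 21-nt reads against 7 and 4 (log2 2.20, SE 0.51), which without mat replicate 2 was 1.87 and no longer a call. Of the 13 families only HELITRONY3A was called lower at these sizes, with a log2 fold change of -1.27 at 21 nt (SE 0.22, adjusted p = 5.5e-07) and -1.27 at 22 nt (SE 0.38, adjusted p = 0.037), where 2.24% and 1.28% of all TE families were called lower. By edgeR 0 of the 13 were higher at 21 nt (1.28% of all TE families) and 0 at 22 nt (1.6%), also at an unadjusted p under 0.05. The HELITRONY3A values rested on AT2TE33370, which had 2, 2 and 1 21-nt reads in mat replicates 1 to 3 against 553 and 249 in pat replicates 2 and 3. The other 45 insertions of HELITRONY3A had 27.7, 30.8 and 24.2 CPM per kb against 29.3 and 32.1 at 21 nt, so the crosses overlapped. At 22 nt they had 68.7, 66.8 and 54.0 against 71.6 and 72.3.

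Within a library, the make-up of HELITRON sRNAs by size also differed between genotypes, a measure that needs no scaling between libraries. In mat nrpd1+/-, 24-nt reads were 59.5 to 64.2% of the 21- to 24-nt reads of HELITRON insertions other than AT3TE54345, 23-nt reads 24.4 to 28.0% and 21-nt reads 5.69 to 5.97%. In nrpd1-/- the 24-nt share was 46.9 to 61.2%, the 23-nt share 8.32 to 10.04% and the 21-nt share 21.7 to 31.6%. The 22-nt share was 5.74 to 6.52% in mat nrpd1+/- and 8.70 to 11.5% in nrpd1-/-. The 21-, 22- and 23-nt shares thus did not overlap between the groups, while the 24-nt shares did. The difference was not tested. All TE insertions together had 21-nt shares of 6.15 to 6.21% and 20.01 to 25.7%. AT3TE54345 kept a 24-nt share of 83.9 to 85.0% in mat nrpd1+/- and 87.2 to 90.8% in nrpd1-/-, and the ATREP families had 60.1 to 65.9% and 80.7 to 85.6%. The ATREP and all-TE shares keep insertions that overlap copies of the AT3TE54345 stretch, so they are not on a par with the HELITRON shares. In nrpd1-/- replicate 1 the ATREP insertions AT2TE45630, AT2TE45635 and AT3TE54270 held 31446, 23431 and 21755 of the 253557 24-nt TE reads.

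**Figure D4:**
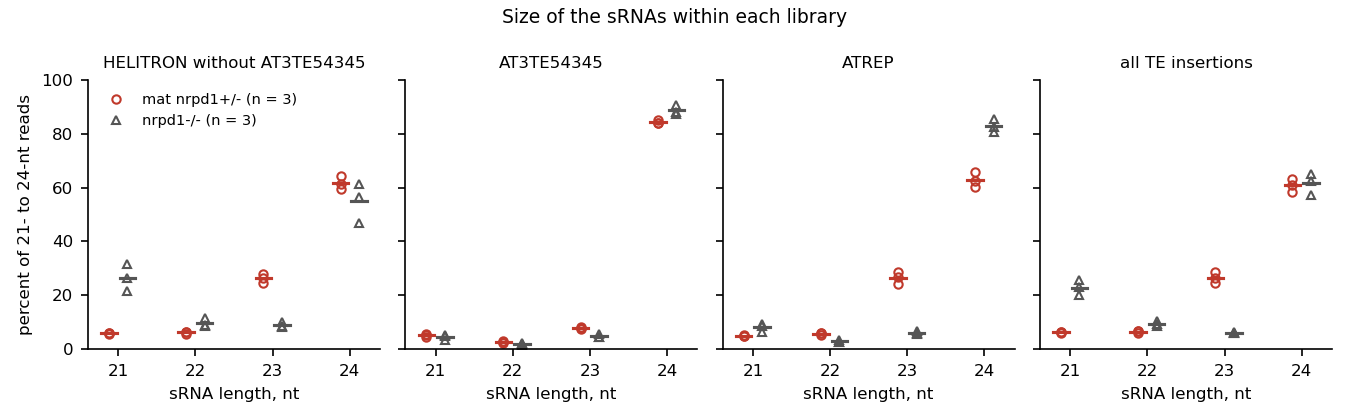
Share of 21-, 22-, 23- and 24-nt reads (percent, y axis from 0 to 100) within each mat nrpd1+/- and nrpd1-/- library, for HELITRON insertions without AT3TE54345, for AT3TE54345, for the ATREP families and for all TE insertions. Symbols are libraries and bars are group means. The ATREP and all-TE panels keep insertions that overlap copies of the AT3TE54345 stretch. The 21-nt share of the HELITRON insertions was 5.69 to 5.97% in mat nrpd1+/- and 21.7 to 31.6% in nrpd1-/-, and 24-nt reads dominate AT3TE54345 in both genotypes.

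The 4 insertions in which the letters of both helitron ends were found followed the rest in nrpd1-/-. AT4TE18205 (HELITRONY2, 10996 bp) had 8198, 7844 and 5944 24-nt reads in the mat libraries, 11691 and 6401 in the pat libraries, and 43, 55 and 32 in nrpd1-/-. AT1TE43740 (HELITRON1, 15006 bp) had 2272, 2100 and 1644, then 2720 and 1447, and 14, 22 and 13. The shorter AT2TE22585 and AT5TE48360 had 126 to 223 reads in the mat libraries and 0 to 7 in nrpd1-/-. All 4 were lower in nrpd1-/- than in mat nrpd1+/-, with log2 fold changes from -5.69 to -4.18, and none was called between mat and pat nrpd1+/-, where their log2 fold changes ran from -0.07 to 0.33. Copies of at least 2000 bp were called in 4 lower and 2 higher of 143 tested between mat and pat nrpd1+/- (2.797% and 1.40%), and those under 100 bp in 13 and 19 of 257 (5.06% and 7.39%). Over all TE insertions in these length classes, 0.658% were lower and 1.397% higher at 2000 bp or more, and 3.06% lower and 6.52% higher under 100 bp. The spread of the log2 fold changes also narrowed with length, from an SD of 1.79 under 100 bp to 0.66 at 2000 bp or more.

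The insertion with the most 24-nt reads in each family was described too. Among the 11 families other than HELITRONY2 and HELITRONY3A, the log2 fold change of the top insertion between mat and pat nrpd1+/- ran from -0.30 (AT2TE20375, HELITRONY1E) to 0.42 (AT2TE11410, HELITRONY1C), and none was called. In nrpd1-/- against mat nrpd1+/- those 11 ran from -6.42 (AT2TE11410) to -4.54 (AT3TE58655, HELITRON5). AT3TE58655, the 12545 bp top copy of HELITRON5, had 7041, 6324 and 5243 reads in the mat libraries, 9032 and 4900 in the pat libraries and 72, 109 and 63 in nrpd1-/-. The top copies of HELITRON1 to 5 were AT2TE24245, AT4TE08260, AT3TE59535, AT5TE52795 and AT3TE58655, and 4 of these 5 are 11386 to 16873 bp long. Those of HELITRONY1A (AT2TE26565, 27 bp) and HELITRONY1E (AT2TE20375, 47 bp) were short fragments.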

How the data were processed

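sRNA libraries of 8 endosperm samples were analysed. Per the paper's methods, the authors trimmed reads by quality and adapter (cutadapt), removed duplicates by random adapter bases, aligned with Bowtie 1.2.2 to TAIR10 and a Ler pseudo-genome allowing 2 mismatches and 1 alignment, split reads by size, and counted them over genes and TEs with bedtools. The deposited counts are whole reads per insertion or gene. The deposited normalised signal values are counts divided by DESeq2 size factors, and only their WT and class sums are given, as the authors' values. The authors' fold changes and p-values against WT were not used, nor were 321 per-library columns that name samples of another series, or that could not be tied to a labelled library.

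Counts were tested with edgeR 4.0.16 (R 4.3.3; quasi-likelihood, filterByExpr with a minimum count of 10), with library sizes and TMM factors from genic counts of the same read size, and p-values adjusted over all TE insertions or families. Gene-table entries that name no gene held 58.0 to 88.7% of 24-nt reads and stayed out of library sizes. DESeq2 1.42.0, genic sizes without TMM factors, miRNA sizes, no filter, a replicate block, no minimum fold, leaving out each library and leaving out insertions within 5 Mb of NRPD1 were alternatives. TE-count scaling and sums without AT3TE54345 were added after seeing the data. The test was checked only on simulated counts in which few insertions changed, up and down alike, with the same spread between libraries for all. That setting differs from the nrpd1-/- comparisons, where nearly all insertions were lower, and does not cover the difference between the pat replicates. 23-nt pat and 21-nt nrpd1-/- comparisons were not made, since the 23-nt pat TE table carries the mat cross in its column names and the 21-nt nrpd1-/- gene table gave no library size. Inverted repeats were searched with blastn 2.17.0.

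Members and lists were chosen with earlier results of these data known. Named insertions are those with the largest fold change among calls whose libraries do not overlap and that average at least 20 reads in the higher group (8 in each direction for 24-nt mat against pat, 4 for each 24-nt nrpd1-/- comparison, 2 for other sizes), plus the insertion with the most 24-nt reads in each family. Others are named as chosen after their values were seen.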

Additional observations from a re-analysis of the deposited data

How the results depend on the processing

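Of 105 single results, 1006 of 1039 alternatives kept direction and side of the threshold, and of 22 counts, 203 of 252 alternatives stayed within 1.5 times. The cause of the changes was not tested. For 24-nt mat against pat nrpd1+/-, the 114 higher insertions became 698 without TMM factors, 59 with the replicate block, 73 with TE scaling and 67 to 309 when a library was left out, and families lower became 1 with TE scaling or no minimum fold. HELITRONY3A was -1.20 with TE scaling. Uncalled values changed sign as follows. Without TMM factors AT3TE54345 was 0.060, HELITRONY1B 0.59, HELITRONY1D 0.56 and HELITRONY1E 0.57. With TE scaling HELITRON1 was -0.013, HELITRON4 -0.035, HELITRON5 -0.0019, HELITRONY1A -0.073, HELITRONY1C -0.23, HELITRONY2 -0.025 and HELITRONY3 -0.080. With the replicate block HELITRONY1B was 0.0037. Leaving out a library gave ranges of -0.069 to 0.46 for HELITRONY1A, -0.11 to 0.093 for HELITRONY1B, -0.076 to 0.16 for HELITRONY1C, -0.16 to 0.093 for HELITRONY1D, -0.16 to 0.095 for HELITRONY1E and -0.0030 to 0.49 for HELITRONY2.

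Insertions higher in nrpd1-/- than in mat nrpd1+/- (24 nt, 4) were 13 with DESeq2, 2 without TMM factors, 2 with the replicate block, 18 without the filter, 1 with miRNA scaling and 1 to 9 when a library was left out. Against pat nrpd1+/- the 974 lower were 1523 with DESeq2, 1825 without the filter and 1715 with miRNA scaling, and the 1 higher was 2 without the filter and 0 with miRNA scaling. With miRNA scaling AT3TE54345 was 0.81 and 0.28, and HELITRONY2 -2.98 and -2.74. Without AT3TE54345, HELITRONY2 was -5.35 and -5.04.

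At 22 nt, the 26 higher in mat nrpd1+/- were 15 with DESeq2, 320 without TMM factors, 0 with the replicate block, 8 with TE scaling, 15 without the NRPD1 window and 9 to 305 when a library was left out. The 494 lower in nrpd1-/- than mat nrpd1+/- were 1128 with DESeq2 and 1442 without the filter, the 0 higher were 2 without the filter, 1 with no minimum fold and 0 to 1 when a library was left out, and the 399 lower than pat nrpd1+/- were 680 and 1047. At 21 nt, the 21 higher were 12 with DESeq2, 241 without TMM factors, 9 with the replicate block, 33 with no minimum fold and 14 to 71 when a library was left out. At 23 nt, the 1033 lower were 1848 with DESeq2 and 1987 without the filter, and the 1 higher 0 and 3. AT1TE59670 and AT3TE24555 (22 nt, 2.64 and 2.94) and AT1TE59670 (21 nt, 1.85) lost their calls with the replicate block. Same-numbered libraries deviated together with r of -0.26 to 0.14, so the numbers were not taken to pair libraries.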
